A study of Mus musculus with 18 samples.

Results

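The genes described here are 45 genes of the cell cycle and of DNA replication, chosen by symbol from a list of S-phase and mitosis genes and read from the 24421 gene rows of each library's count file. They fall into 9 replication licensing genes (Mcm2, Mcm3, Mcm4, Mcm5, Mcm6, Mcm7, Cdc6, Cdt1 and Gmnn), 2 G1/S cyclins (Ccne1 and Ccne2), 9 genes of DNA synthesis and nucleotide supply (Pcna, Fen1, Lig1, Rrm1, Rrm2, Tyms, Tk1, Uhrf1 and Hells) and 25 mitotic genes. All 45 were found and all 45 passed the filter on low counts, which asked for 6.55 CPM (counts per 1000000 counts of a library) in at least 3 of the 18 libraries. Of them, 39 reached that level without the MHCII+CD11c+ libraries, whereas 6 (Ccne1, Ccne2, Cdc6, Bub1, Aurkb and Hells) reached it only with them.

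The libraries are bulk total RNA-seq of macrophages sorted from the synovium, the lining tissue of the joint, of wild-type C57BL/6 mice. The sorted populations, named by surface protein, were LYVE1+CX3CR1+ macrophages (negative for MHCII and Ly6C), MHCII+CD11c- macrophages and MHCII+CD11c+ macrophages. Each came from untreated control mice or from mice given immune complexes (IC) intravenously and killed 8 h later, with 3 libraries in each of the 6 groups. By a legend of the study each untreated library stands for 3 mice, which for the IC libraries is not given in the sources used here, and p-values measure the spread between such libraries. In bulk RNA fewer cycling cells and less RNA of these genes per cell cannot be told apart.

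A dividing cell first licenses its DNA: the loaders Cdc6 and Cdt1 place rings of the MCM2-7 helicase on replication origins, and geminin (Gmnn) keeps Cdt1 from doing so again within the same cycle. Cyclin E with its kinase then starts S phase, in which PCNA clamps the polymerases to DNA, FEN1 and ligase I join the lagging strand, and ribonucleotide reductase, thymidylate synthase and thymidine kinase supply nucleotides. The mitotic genes peak later, when cyclin B with CDK1, the Aurora and Polo kinases, kinesins and centromere proteins build the spindle and part the chromosomes, and the APC/C ligase ends the phase. In tissues, resident macrophages can maintain themselves by division in place.

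Total counts ranged from 837439 to 2172358 in the untreated libraries and from 245903 to 2047260 in the IC libraries. The first and second MHCII+CD11c- IC libraries were the smallest of all, with 381217 and 245903 counts, and in the second of them 32 of the 45 genes had 3 counts or fewer and 21 had none. Calls that involve this group are given with and without both libraries, a choice made after seeing the data. Itgax, which encodes CD11c, lay at 240.0 to 304 CPM in untreated MHCII+CD11c+ libraries, at 2.33 to 13.3 CPM in MHCII+CD11c- and at 0 to 4.04 CPM in LYVE1+CX3CR1+. Untreated, the 3 MHCII genes H2-Ab1, H2-Aa and Cd74 summed to 32.6 to 53.3 CPM in LYVE1+CX3CR1+ against at least 16677 CPM in the others. The sort labels of the untreated libraries were thus matched by these genes. After IC Itgax was at 31.0 to 70.6 CPM in MHCII+CD11c- and 273 to 383 CPM in MHCII+CD11c+. The MHCII sum after IC was 5855 to 11735 CPM in MHCII+CD11c-, 18992 to 23277 CPM in MHCII+CD11c+ and 34.4 to 112 CPM in LYVE1+CX3CR1+. In MHCII+CD11c- the 4 markers of LYVE1+CX3CR1+ macrophages summed to 1296 to 1457 CPM untreated and 1141 to 3331 CPM after IC. In MHCII+CD11c+ they rose without overlap, from 463 to 580 CPM untreated to 1205 to 1550 CPM after IC. In LYVE1+CX3CR1+ itself they were at 4542 to 5019 CPM untreated and 5960 to 6256 CPM after IC.

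The promoters of the 3 licensing or synthesis genes and the 3 mitotic genes with the smallest adjusted p-values are shown, since genes of the phases are known to carry different promoter elements. Each sequence is the 250 bases before the most upstream start in the promoter table, 5′ to 3′ on the gene's strand, from RefSeq (GRCm38.p6, the mm10 assembly). The longest annotated transcripts of Mcm7, Prc1 and Top2a start inside these windows. For Prc1 and Top2a that start lies close to the downstream end. For Mcm7 it lies near the upstream end, so most of that window and all its marked matches lie within the transcript. The windows lie at chr5:138171884-138172133 (minus strand) for Mcm7, chr6:88898781-88899030 (minus) for Mcm2, chr17:56303087-56303336 (plus) for Uhrf1, chr13:51644982-51645231 (plus) for Cks2, chr7:80294201-80294450 (plus) for Prc1 and chr11:99024190-99024439 (minus) for Top2a. Capitals mark matches on either strand to E2F sites (TTTCCCGC, TTTCGCGC, TTTGCCGC or TTTGGCGC), to the cell cycle homology region (CHR, TTTGAA or TTCGAA) and to the CCAAT box (CCAAT).
Mcm7: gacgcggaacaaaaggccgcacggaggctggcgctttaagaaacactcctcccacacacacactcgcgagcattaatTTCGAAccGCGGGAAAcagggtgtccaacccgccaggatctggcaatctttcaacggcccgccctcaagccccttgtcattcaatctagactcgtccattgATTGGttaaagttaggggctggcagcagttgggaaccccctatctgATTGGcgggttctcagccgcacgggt
Mcm2: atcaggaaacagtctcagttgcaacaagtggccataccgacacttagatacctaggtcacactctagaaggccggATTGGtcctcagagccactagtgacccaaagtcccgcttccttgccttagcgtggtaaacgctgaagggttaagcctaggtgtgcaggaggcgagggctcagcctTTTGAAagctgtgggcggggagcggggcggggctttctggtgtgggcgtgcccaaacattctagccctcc
Uhrf1: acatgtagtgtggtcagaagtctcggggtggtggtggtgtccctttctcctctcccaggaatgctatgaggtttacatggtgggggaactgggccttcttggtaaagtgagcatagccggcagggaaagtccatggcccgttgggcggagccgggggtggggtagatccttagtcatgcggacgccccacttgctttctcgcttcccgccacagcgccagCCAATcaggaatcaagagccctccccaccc
Cks2: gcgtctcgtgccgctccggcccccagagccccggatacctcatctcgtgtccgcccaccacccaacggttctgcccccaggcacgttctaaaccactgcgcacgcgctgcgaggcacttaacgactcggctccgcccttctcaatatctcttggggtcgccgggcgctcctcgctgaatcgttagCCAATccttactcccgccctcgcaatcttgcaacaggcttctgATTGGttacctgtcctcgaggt
Prc1: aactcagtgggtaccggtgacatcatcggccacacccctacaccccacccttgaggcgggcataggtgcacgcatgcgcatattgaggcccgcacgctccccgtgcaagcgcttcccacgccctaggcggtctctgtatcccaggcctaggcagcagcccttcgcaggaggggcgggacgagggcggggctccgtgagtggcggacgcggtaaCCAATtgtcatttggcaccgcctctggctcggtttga
Top2a: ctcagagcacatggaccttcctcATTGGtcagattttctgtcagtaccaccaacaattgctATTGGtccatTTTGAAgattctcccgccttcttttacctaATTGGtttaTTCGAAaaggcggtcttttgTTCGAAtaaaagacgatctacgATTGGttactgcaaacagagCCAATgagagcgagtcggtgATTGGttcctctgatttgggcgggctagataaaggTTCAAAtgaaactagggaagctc

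The Mcm7 window held 1 E2F match, 1 CHR match and 2 CCAAT boxes, and the Top2a window held 6 CCAAT boxes and 4 CHR matches with no E2F match. Over all genes of these classes with a promoter entry (37 of 45), a CCAAT box stood in 18 of 20 mitotic promoters (90%), in 5 of 7 licensing promoters (71.4%) and in 4 of 9 synthesis promoters (44.4%), against 34.5% of the promoters of all 27025 genes in the table. CHR matches were found in 8 of 20 mitotic promoters (40%), 2 of 7 licensing promoters (28.6%) and 1 of 9 synthesis promoters (11.1%), and in 17.5% of all. E2F matches were found in 4 of 7 licensing promoters (57.1%, those of Mcm5, Mcm6, Mcm7 and Cdc6), in 1 of 9 synthesis promoters (11.1%, Hells), in 1 of 20 mitotic ones (5%, Cdk1) and in 1.92% of all. These matches are letters in a window and were not tested for binding.

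Without treatment the genes as a group were at their highest in MHCII+CD11c+ macrophages and at their lowest in LYVE1+CX3CR1+ macrophages. The mitotic genes set LYVE1+CX3CR1+ furthest apart from the MHCII+ subsets. The 25 mitotic genes summed to 148 ± 59.0 CPM (SD, n = 3 libraries) in untreated LYVE1+CX3CR1+ macrophages, 431 ± 180 CPM in MHCII+CD11c- and 692 ± 41.9 CPM in MHCII+CD11c+. The mean was 4.66 times as high in MHCII+CD11c+ as in LYVE1+CX3CR1+. The 9 licensing genes summed to 201 ± 22.5, 244 ± 18.5 and 412 ± 33.3 CPM in the same order, 2.05 times as high in MHCII+CD11c+ as in LYVE1+CX3CR1+. The 9 synthesis genes summed to 181 ± 23.7, 228 ± 41.3 and 358 ± 18.1 CPM, a ratio of 1.97. Between the untreated MHCII+ subsets the classes were alike, with MHCII+CD11c+ 1.69 (licensing), 1.57 (synthesis) and 1.61 times (mitotic) as high as MHCII+CD11c-. For all 3 classes every untreated MHCII+CD11c+ library lay above every untreated library of the other subsets, though for the mitotic genes the lowest of them (649.6 CPM) was only just above the first MHCII+CD11c- library (636 CPM). These sums are descriptions without a test.

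**Figure D1:**
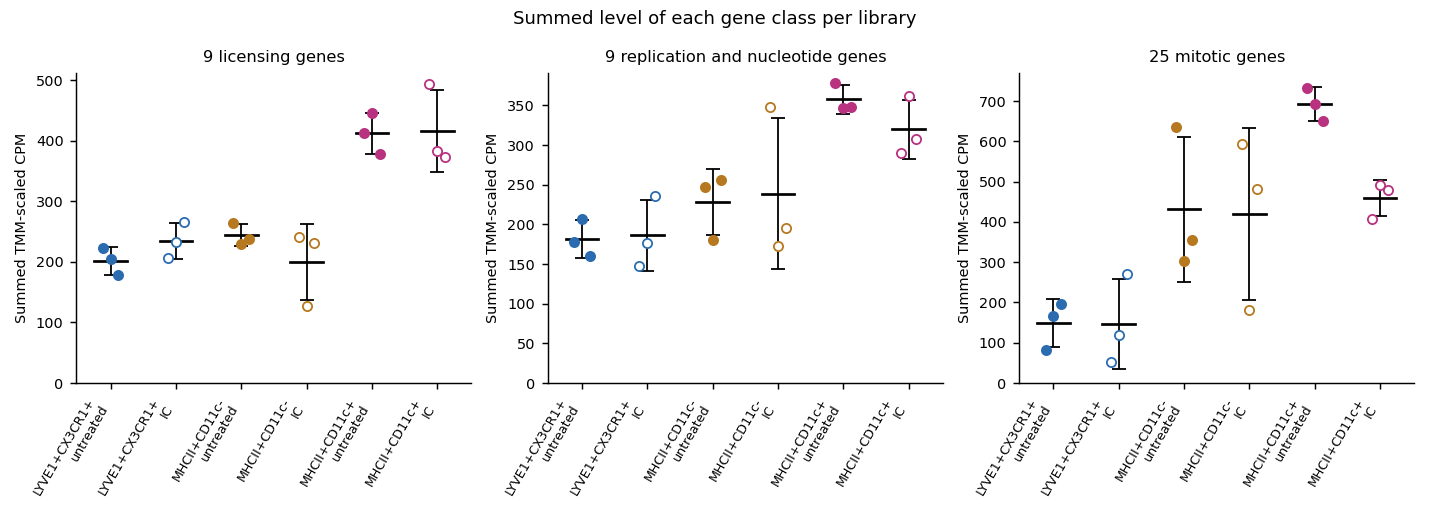
Summed TMM-scaled CPM of the 9 licensing, 9 synthesis and 25 mitotic genes in each library (filled points, untreated; open points, 8 h after IC), with the mean (wide bar) and SD (error bar) of the 3 libraries of a group. The untreated MHCII+CD11c+ libraries are the highest for mitotic genes (649.6 to 733 CPM) and the MHCII+CD11c+ IC libraries lie below them (407 to 492 CPM).

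The mix of classes differed too. Mitotic genes took 46.4% to 47.7% of the counts of the 45 genes in untreated MHCII+CD11c+ libraries, 41.7% to 55.1% in MHCII+CD11c- and 17.01% to 36.4% in LYVE1+CX3CR1+, where licensing genes took 32.8% to 45.6%. LYVE1+CX3CR1+ libraries were also uneven among themselves in the mitotic class. Of the 25 mitotic genes, 15 were lowest in the first untreated LYVE1+CX3CR1+ library and 21 were lowest in the first LYVE1+CX3CR1+ IC library, while 21 were highest in the third LYVE1+CX3CR1+ IC library. In untreated MHCII+CD11c-, 19 of the 25 were highest in the first library.

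**Figure D2:**
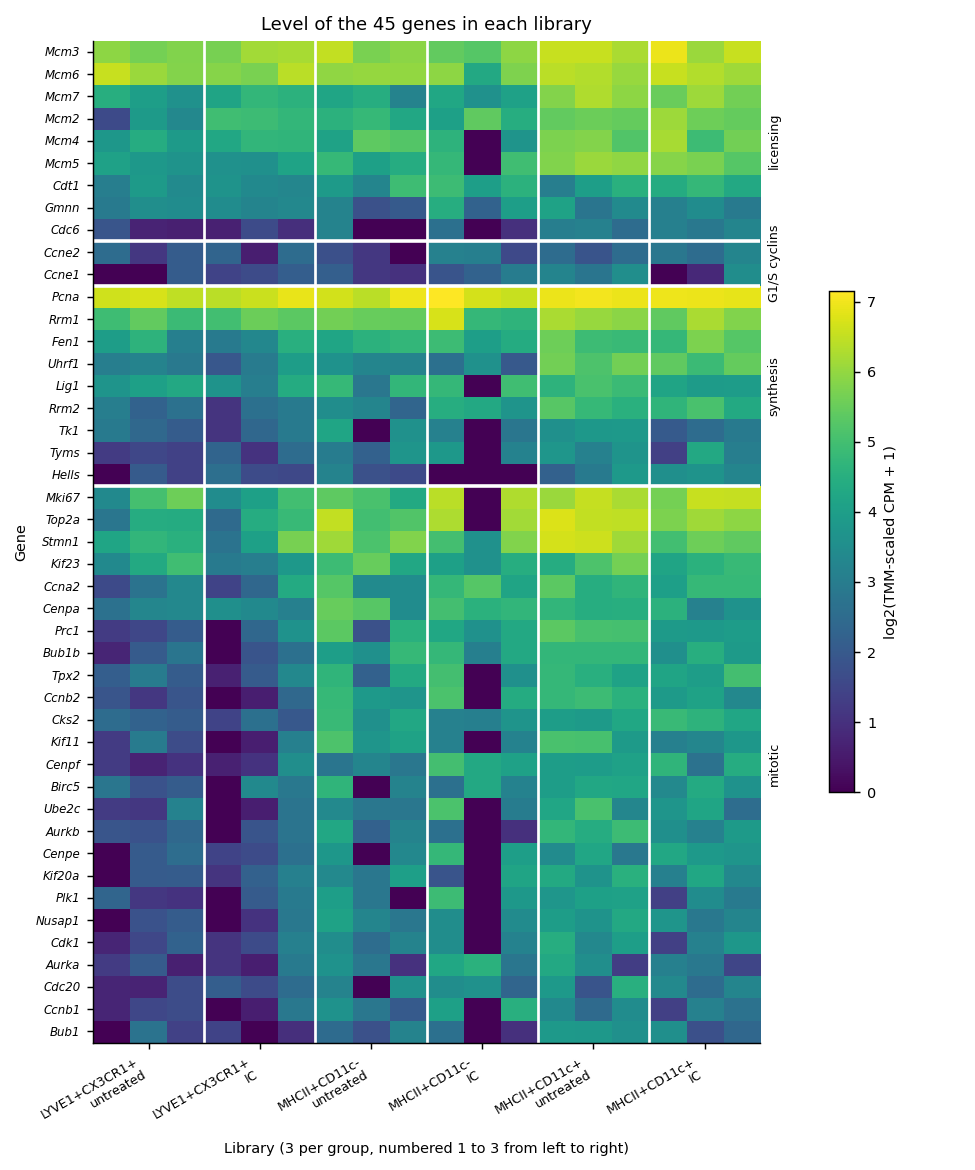
Level of each of the 45 genes (rows, by class and from high to low mean) in the 18 libraries (columns, 3 per group) as log2(TMM-scaled CPM + 1), with dark cells at 0. The dark column is the second MHCII+CD11c- IC library, the smallest, in which 21 genes had no count.

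A gene with 3 counts or fewer in every library of a group was taken as being at the floor of detection there, and no fold against that group was read other than as a bound. In untreated macrophages Cenpf and Tyms were at the floor in LYVE1+CX3CR1+, Ccne1 and Ccne2 were at the floor in MHCII+CD11c-, and no gene was in MHCII+CD11c+. After IC, Bub1 was at the floor in LYVE1+CX3CR1+, and Cdc6, Ccne2, Uhrf1, Hells, Bub1 and Aurkb were in MHCII+CD11c-, where Hells had no count in any library. No gene was at the floor in MHCII+CD11c+ after IC. Counting single values, 37 of 135 were at 3 counts or fewer in untreated LYVE1+CX3CR1+, 24 in MHCII+CD11c- and 1 in MHCII+CD11c+, and after IC these numbers were 35, 50 and 9. Floors and intervals of this kind cover counting error only.

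Per kilobase of annotated exon, which allows levels of different genes to be compared, Pcna stood highest in untreated MHCII+CD11c+ (51.8 CPM per kb), followed by Stmn1 (46.5), Mcm3 (23.0) and Cks2 (22.6), and Cenpf was lowest (0.974). In untreated LYVE1+CX3CR1+ the order began with Pcna (40.0 CPM per kb), Mcm6 (15.4), Mcm3 (14.6) and Stmn1 (11.2), and again ended with Cenpf (0.0659).

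Between LYVE1+CX3CR1+ and MHCII+CD11c+ macrophages without treatment, 28 of the 45 genes were called lower in LYVE1+CX3CR1+ and none higher, by the quasi-likelihood F test of edgeR, adjusted after Benjamini and Hochberg across 10550 genes tested, of which 12.4% were called lower. The 28 were 4 of 9 licensing genes, 5 of 9 synthesis genes and 19 of 25 mitotic genes. All 45 fitted values were below 0, with a median log2 fold change of -2.57 for the mitotic, -1.59 for the licensing and -1.39 for the synthesis genes, and -0.02 for all genes tested. In 39 of the 45 genes every LYVE1+CX3CR1+ library lay below every MHCII+CD11c+ library, against 21.6% of all genes tested. Aurkb, 1 of the 28, and 5 genes not called passed the filter on low counts only with the MHCII+CD11c+ libraries, so that lower values elsewhere are in part set by the filter for these 6. Of the 28 calls, 16, Aurkb among them, held in every fit that left out 1 library, and leaving out the first untreated LYVE1+CX3CR1+ library lowered their number most, to 18.

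LYVE1+CX3CR1+ against MHCII+CD11c- without treatment gave 8 genes called lower and none higher, where 7.12% of all genes tested were called lower. Of these, 7 were mitotic (Cks2, Prc1, Cenpa, Ccnb2, Bub1b, Kif11 and Top2a) and 1 was a licensing gene (Mcm2), with no synthesis gene. The medians were -1.81 for the mitotic, -0.62 for the licensing and -0.46 for the synthesis genes, against -0.02 for all genes tested. The number was 2 without the first MHCII+CD11c- library, in which mitotic genes were highest, 4 without the first LYVE1+CX3CR1+ library, and 5 without either the second or the third LYVE1+CX3CR1+ library, and it was 13 when no filter on low counts was used.

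MHCII+CD11c+ against MHCII+CD11c- without treatment gave 4 genes called higher and none lower, where 1.89% of all genes tested were called higher. All 4 act before or during DNA synthesis (Mcm5, Mcm7, Rrm2 and Uhrf1), and none of the 25 mitotic genes passed the test, with 1 of them at an unadjusted p under 0.05 and none called by DESeq2, though Mki67 was called when no filter on low counts was used or only the 6 libraries compared were fitted. The medians were 0.94 for the licensing, 0.55 for the synthesis and 0.68 for the mitotic genes. Mcm7 and Uhrf1 alone remained without the second or the third MHCII+CD11c- library or without the second MHCII+CD11c+ library. The median log2 fold change over all genes tested was -0.01 in this comparison.

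**Figure D3:**
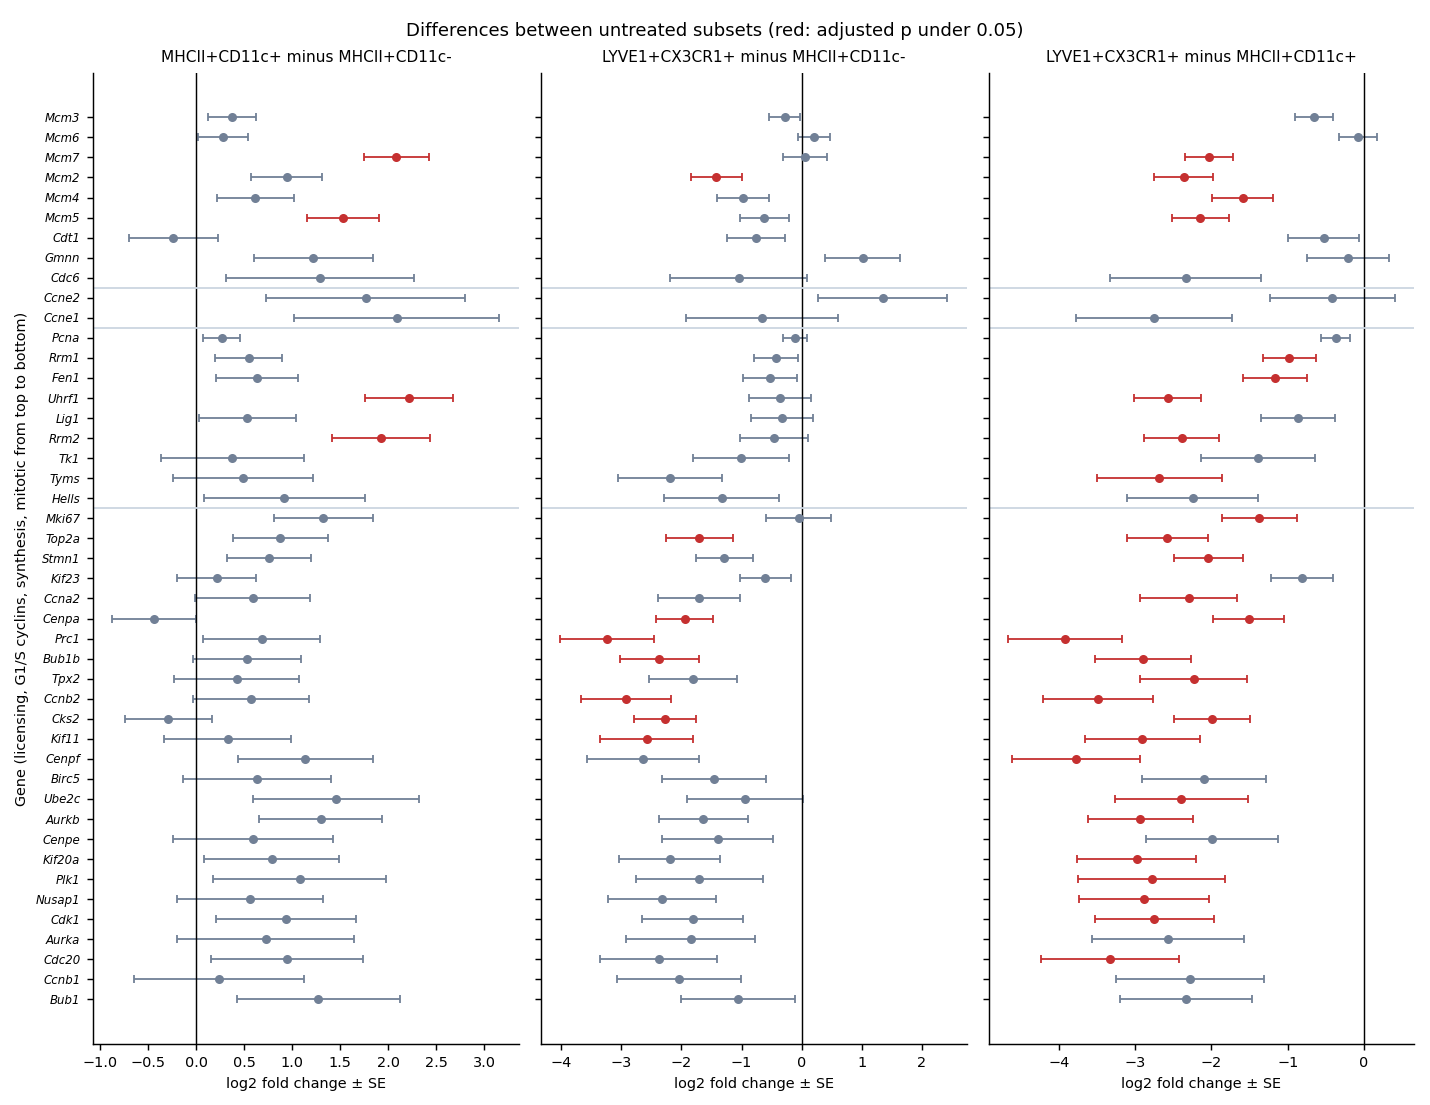
Fitted log2 fold change with its SE for each of the 45 genes (rows, by class) in the 3 comparisons of untreated subsets, with genes at an adjusted p under 0.05 in red. The right panel has 28 red points, all to the left of 0, the middle panel 8 and the left panel 4, which are Mcm5, Mcm7, Rrm2 and Uhrf1.

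Markers of other cells also differed between the subsets, not all in the order of the cell cycle genes, and their part in the differences above was not tested. The B cell markers Cd79a, Cd79b and Ms4a1 together summed to 176 to 249 CPM in untreated MHCII+CD11c-, 59.2 to 78.6 CPM in MHCII+CD11c+ and 0 to 1.62 CPM in LYVE1+CX3CR1+, where Cd79b had no count. The 6 dendritic cell markers summed to 99.8 to 204 CPM in MHCII+CD11c+, 55.0 to 72.5 CPM in MHCII+CD11c- and 4.85 to 6.74 CPM in LYVE1+CX3CR1+ (Flt3 and Ccr7 at 0), and the 4 monocyte markers to 788 to 826, 588 to 780 and 23.2 to 32.3 CPM (Ly6c2 and Chil3 at 0). The 5 markers of neutrophil precursors (Mpo, Elane, Prtn3, Ltf and Camp), some of which divide in the bone marrow, were all at 0 in every untreated LYVE1+CX3CR1+ library. They summed to 171 to 502 CPM in MHCII+CD11c- and 0 to 231 CPM in MHCII+CD11c+. In untreated MHCII+CD11c- 2 of the 5 were at 3 counts or fewer in every library, 1 of them, Elane, with no count. The second untreated MHCII+CD11c+ library had no count for any of those 5, and its mitotic sum was 694 CPM, between those of the other two. The 4 erythroid markers varied widely within groups, from 12.2 to 1467 CPM in MHCII+CD11c-, 56.9 to 679 CPM in MHCII+CD11c+ and 2.02 to 599 CPM in LYVE1+CX3CR1+, and were highest in the first MHCII+CD11c- library. The 4 T and NK cell markers found of 5 summed to at most 4.65 CPM in any library.

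The helicase subunits differed among themselves. Mcm7 lies at chr5:138164583-138172111 (RefSeq, GRCm38.p6, as for the positions below). Untreated Mcm7 lay at 21.6, 15.04 and 11.3 CPM in LYVE1+CX3CR1+, 17.4, 20.8 and 8.17 CPM in MHCII+CD11c- and 56.2, 78.2 and 60.8 CPM in MHCII+CD11c+. The MHCII+CD11c+ libraries were all above the rest, and the other subsets overlapped. Mcm7 was higher in MHCII+CD11c+ than in MHCII+CD11c- (log2 fold change 2.08 ± 0.34 SE, adjusted p = 0.000598), which was kept whichever of the 6 libraries was left out. It was lower in LYVE1+CX3CR1+ than in MHCII+CD11c+ (log2 fold change -2.03 ± 0.32 SE, adjusted p = 2.45e-05), which was kept whichever of the 6 libraries was left out. After IC, Mcm7 lay at 16.9, 25.8 and 23.05 CPM in LYVE1+CX3CR1+, 18.3, 11.3 and 16.02 CPM in MHCII+CD11c- and 44.7, 68.4 and 48.1 CPM in MHCII+CD11c+, with MHCII+CD11c+ again above the rest.

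Untreated Mcm2 (chr6:88883474-88898780) lay at 2.02, 13.8 and 9.15 CPM in LYVE1+CX3CR1+, 23.3, 26.9 and 18.4 CPM in MHCII+CD11c- and 42.6, 45.4 and 43.4 CPM in MHCII+CD11c+, so the 3 subsets did not overlap. Mcm2 was lower in LYVE1+CX3CR1+ than in MHCII+CD11c+ (log2 fold change -2.36 ± 0.39 SE, adjusted p = 4.93e-05), which was kept whichever of the 6 libraries was left out. Against MHCII+CD11c- it was lower too (log2 fold change -1.42 ± 0.43 SE, adjusted p = 0.0278), a call that was lost without library 1 or 2 of untreated MHCII+CD11c- or library 1 or 3 of untreated LYVE1+CX3CR1+ (adjusted p of up to 0.14), and also when only the 6 libraries compared were fitted (adjusted p = 0.102). After IC, Mcm2 lay at 29.9, 28.99 and 25.4 CPM in LYVE1+CX3CR1+, 15.7, 41.4 and 21.03 CPM in MHCII+CD11c- and 67.9, 46.4 and 43.3 CPM in MHCII+CD11c+, and the LYVE1+CX3CR1+ libraries then overlapped those of MHCII+CD11c-.

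Untreated Mcm5 lay at 16.2, 13.2 and 11.8 CPM in LYVE1+CX3CR1+, 26.7, 15.9 and 20.4 CPM in MHCII+CD11c- and 54.6, 66.4 and 61.7 CPM in MHCII+CD11c+. Only the MHCII+CD11c+ libraries stood clear of the others. Mcm5 was higher there than in MHCII+CD11c- (log2 fold change 1.53 ± 0.38 SE, adjusted p = 0.021), which was lost without library 2 or 3 of untreated MHCII+CD11c+ or library 2 or 3 of untreated MHCII+CD11c- (adjusted p of up to 0.104). In turn Mcm5 was lower in LYVE1+CX3CR1+ than there (log2 fold change -2.15 ± 0.37 SE, adjusted p = 9.49e-05), which was kept whichever of the 6 libraries was left out. After IC, Mcm5 lay at 11.3, 11.1 and 16.8 CPM in LYVE1+CX3CR1+, 26.1, 0 and 30.04 CPM in MHCII+CD11c- and 57.1, 51.1 and 37.8 CPM in MHCII+CD11c+, the single 0 being in the smallest library.

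Untreated Mcm4 lay at 12.8, 20.7 and 14 CPM in LYVE1+CX3CR1+, 16.3, 40.3 and 36.8 CPM in MHCII+CD11c- and 52.5, 55.2 and 36.2 CPM in MHCII+CD11c+. Mcm4 was lower in LYVE1+CX3CR1+ than in MHCII+CD11c+ (log2 fold change -1.59 ± 0.40 SE, adjusted p = 0.00433), which was kept whichever of the 6 libraries was left out. After IC, Mcm4 lay at 18.6, 25.3 and 24.5 CPM in LYVE1+CX3CR1+, 23.5, 0 and 12.02 CPM in MHCII+CD11c- and 74.04, 29.1 and 48.1 CPM in MHCII+CD11c+, and the MHCII+CD11c- libraries were the lowest on average.

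Mcm3 and Mcm6, the subunits with the most CPM per kb in every group, passed no test. Untreated Mcm3 lay at 59.98, 49.5 and 54.9 CPM in LYVE1+CX3CR1+, 89.5, 51.3 and 59.3 CPM in MHCII+CD11c- and 91.9, 92.7 and 74.7 CPM in MHCII+CD11c+. Untreated Mcm6 lay at 93, 67.1 and 56 CPM in LYVE1+CX3CR1+, 61.6, 63.6 and 62.3 CPM in MHCII+CD11c- and 83.5, 78.9 and 65.6 CPM in MHCII+CD11c+. The LYVE1+CX3CR1+ libraries overlapped those of both other subsets (log2 fold change -0.08 ± 0.25 SE, adjusted p = 0.88 against MHCII+CD11c+). Every MHCII+CD11c+ library lay above every MHCII+CD11c- library, by little. After IC, Mcm3 lay at 50.2, 70.1 and 72.99 CPM in LYVE1+CX3CR1+, 41.8, 37.7 and 60.1 CPM in MHCII+CD11c- and 122, 66.9 and 92.6 CPM in MHCII+CD11c+. In the same libraries Mcm6 lay at 56.95, 51.7 and 84.5 CPM in LYVE1+CX3CR1+, 60.1, 18.8 and 53.1 CPM in MHCII+CD11c- and 92.6, 78.7 and 68.8 CPM in MHCII+CD11c+. The 6 subunits of the helicase thus had fitted differences from -0.08 for Mcm6 to -2.36 for Mcm2 on the log2 scale in the same comparison, LYVE1+CX3CR1+ against MHCII+CD11c+ without treatment.

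The loaders and their inhibitor showed no called difference. Untreated Cdt1 lay at 7.41, 13.8 and 9.69 CPM in LYVE1+CX3CR1+, 13.95, 8.56 and 29.6 CPM in MHCII+CD11c- and 7.36, 15.1 and 22.2 CPM in MHCII+CD11c+, with the groups overlapping throughout. After IC, Cdt1 lay at 11.8, 9.49 and 8.64 CPM in LYVE1+CX3CR1+, 28.8, 15.1 and 23.03 CPM in MHCII+CD11c- and 20.1, 25.95 and 18.9 CPM in MHCII+CD11c+. Untreated Cdc6 was at 0.538 to 2.70 CPM in LYVE1+CX3CR1+, 0 to 8.14 CPM in MHCII+CD11c- (no count in 2 of 3 libraries) and 4.82 to 7.89 CPM in MHCII+CD11c+. Gmnn, which blocks relicensing, ranged over 6.74 to 10.7 CPM, 2.44 to 8.14 CPM and 5.92 to 16.3 CPM in the same order.

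The cyclin E genes were too low for most comparisons. Ccne1 ranged over 0 to 3.23 CPM in untreated LYVE1+CX3CR1+, 1.02 to 3.49 CPM in MHCII+CD11c- and 5.92 to 10.6 CPM in MHCII+CD11c+, and was at least 2.44-fold higher in MHCII+CD11c+ than the floor of 3 counts per library in MHCII+CD11c- (adjusted p = 0.345 by edgeR). Ccne2 ranged over 1.25 to 4.72, 0 to 2.33 and 2.63 to 4.82 CPM, with a bound of 1.19-fold. Neither passed the test in any comparison. After IC, Ccne1 ranged from 0 to 10.4 CPM within MHCII+CD11c+ alone.

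Among synthesis genes the smallest adjusted p was that of Uhrf1, which reads hemimethylated DNA behind the fork and recruits the maintenance methyltransferase. Untreated Uhrf1 lay at 7.41, 8.15 and 6.46 CPM in LYVE1+CX3CR1+, 11.6, 8.56 and 8.17 CPM in MHCII+CD11c- and 48.3, 34.8 and 48.7 CPM in MHCII+CD11c+. The MHCII+CD11c+ libraries stood well apart from both other subsets. Uhrf1 was higher there than in MHCII+CD11c- (log2 fold change 2.21 ± 0.46 SE, adjusted p = 0.00488), which was kept whichever of the 6 libraries was left out. In turn Uhrf1 was lower in LYVE1+CX3CR1+ than there (log2 fold change -2.57 ± 0.44 SE, adjusted p = 6.87e-05), which was kept whichever of the 6 libraries was left out. After IC, Uhrf1 lay at 2.82, 6.85 and 14.9 CPM in LYVE1+CX3CR1+, 5.23, 11.3 and 3.004 CPM in MHCII+CD11c- and 41.6, 28.3 and 43.3 CPM in MHCII+CD11c+, with every MHCII+CD11c- library at 3 counts or fewer.

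Rrm2 encodes the small subunit of ribonucleotide reductase, whose level follows S phase, and Rrm1 the large subunit. Untreated Rrm2 lay at 7.41, 3.76 and 5.38 CPM in LYVE1+CX3CR1+, 10.5, 8.56 and 4.09 CPM in MHCII+CD11c- and 38.4, 26.95 and 22.2 CPM in MHCII+CD11c+. Rrm2 was higher in MHCII+CD11c+ than in MHCII+CD11c- (log2 fold change 1.93 ± 0.51 SE, adjusted p = 0.0315), a call that was lost without library 1 or 2 of untreated MHCII+CD11c+ or library 2 or 3 of untreated MHCII+CD11c- (adjusted p of up to 0.165). It was lower in LYVE1+CX3CR1+ than in MHCII+CD11c+ (log2 fold change -2.39 ± 0.49 SE, adjusted p = 0.00059), which was kept whichever of the 6 libraries was left out. After IC, Rrm2 lay at 1.13, 5.27 and 6.72 CPM in LYVE1+CX3CR1+, 20.9, 18.8 and 12.02 CPM in MHCII+CD11c- and 24.7, 33.03 and 19.5 CPM in MHCII+CD11c+, and LYVE1+CX3CR1+ was below both others. Untreated Rrm1 lay at 29.7, 42.6 and 28.5 CPM in LYVE1+CX3CR1+, 48.8, 44.01 and 42.9 CPM in MHCII+CD11c- and 74.1, 65.7 and 58.8 CPM in MHCII+CD11c+, a smaller difference between LYVE1+CX3CR1+ and MHCII+CD11c+ (log2 fold change -0.98 ± 0.34 SE, adjusted p = 0.0402) that was lost without library 1, 2 or 3 of untreated MHCII+CD11c+ or library 1 or 3 of untreated LYVE1+CX3CR1+ (adjusted p of up to 0.156). After IC, Rrm1 lay at 30.4, 45.9 and 39.9 CPM in LYVE1+CX3CR1+, 105, 26.4 and 24.03 CPM in MHCII+CD11c- and 41.6, 75.5 and 54.2 CPM in MHCII+CD11c+.

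Pcna, the sliding clamp, had the most CPM per kb of the 45 genes in untreated LYVE1+CX3CR1+ and MHCII+CD11c+ and did not pass the test in any comparison. Untreated Pcna lay at 97.7, 103 and 86.7 CPM in LYVE1+CX3CR1+, 99.99, 84.3 and 125 CPM in MHCII+CD11c- and 121, 129.5 and 122 CPM in MHCII+CD11c+. LYVE1+CX3CR1+ libraries were all below those of MHCII+CD11c+, by little (log2 fold change -0.37 ± 0.19 SE, adjusted p = 0.184). After IC, Pcna lay at 84.02, 94.4 and 119 CPM in LYVE1+CX3CR1+, 141, 102 and 92.1 CPM in MHCII+CD11c- and 123, 123 and 116 CPM in MHCII+CD11c+.

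Fen1, the flap endonuclease, and Lig1, DNA ligase I, finish the lagging strand. Untreated Fen1 lay at 14.8, 23.8 and 7.54 CPM in LYVE1+CX3CR1+, 17.4, 23.2 and 25.5 CPM in MHCII+CD11c- and 46.2, 28.9 and 27.97 CPM in MHCII+CD11c+. Fen1 was lower in LYVE1+CX3CR1+ than in MHCII+CD11c+ (log2 fold change -1.17 ± 0.42 SE, adjusted p = 0.0452), a call that was lost without library 1, 2 or 3 of untreated MHCII+CD11c+ or library 1 or 3 of untreated LYVE1+CX3CR1+ (adjusted p of up to 0.249), and also by the DESeq2 Wald test (adjusted p = 0.0611). After IC, Fen1 lay at 6.77, 8.96 and 21.6 CPM in LYVE1+CX3CR1+, 28.8, 15.1 and 20.03 CPM in MHCII+CD11c- and 26.2, 52.7 and 37.2 CPM in MHCII+CD11c+. An annotated antisense gene covers 78.8% of the Fen1 exons, and the strand setting of the counting is not given in the sources used here. Genes on the other strand likewise share 29.3% of the exon bases of Kif20a (Cdc23), 22.8% of Ube2c (Tnnc2), 17.4% of Ccne2 (Ints8), 12.5% of Ccna2 (Exosc9) and 11.1% of Prc1 (Rccd1), and reads of such pairs cannot be told apart without strand. Untreated Lig1 lay at 12.1, 15.7 and 18.8 CPM in LYVE1+CX3CR1+, 26.7, 6.11 and 25.5 CPM in MHCII+CD11c- and 23.6, 33.5 and 28.5 CPM in MHCII+CD11c+, with no call (log2 fold change -0.86 ± 0.49 SE, adjusted p = 0.244 for LYVE1+CX3CR1+ against MHCII+CD11c+). After IC, Lig1 lay at 11.8, 7.38 and 20.2 CPM in LYVE1+CX3CR1+, 26.1, 0 and 30.04 CPM in MHCII+CD11c- and 16.97, 14.2 and 14.6 CPM in MHCII+CD11c+.

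Of the thymidylate enzymes, Tyms makes dTMP anew and Tk1 salvages thymidine. Untreated Tyms lay at 1.35, 1.88 and 1.62 CPM in LYVE1+CX3CR1+, 6.98, 3.67 and 12.3 CPM in MHCII+CD11c- and 12.6, 7.89 and 12.1 CPM in MHCII+CD11c+, with LYVE1+CX3CR1+ at the floor. Tyms was called lower there than in MHCII+CD11c+ (adjusted p = 0.0176 by edgeR, at least 5.90-fold lower by the floor of 3 counts per library), a call that was lost without library 1 or 3 of untreated MHCII+CD11c+ or library 1, 2 or 3 of untreated LYVE1+CX3CR1+ (adjusted p of up to 0.0663). After IC, Tyms lay at 3.95, 1.05 and 4.80 CPM in LYVE1+CX3CR1+, 13.1, 0 and 8.01 CPM in MHCII+CD11c- and 1.54, 18.9 and 7.31 CPM in MHCII+CD11c+. Tk1 ranged over 3.23 to 6.74 CPM, 0 to 17.4 CPM and 11.03 to 13.5 CPM untreated, with no call.

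Hells, a chromatin remodeller that works with DNA methylation, was low in all groups. Untreated Hells lay at 0, 3.13 and 1.62 CPM in LYVE1+CX3CR1+, 8.14, 2.44 and 2.04 CPM in MHCII+CD11c- and 3.68, 6.57 and 13.5 CPM in MHCII+CD11c+. After IC, Hells lay at 5.08, 2.11 and 1.92 CPM in LYVE1+CX3CR1+, 0, 0 and 0 CPM in MHCII+CD11c- and 10.8, 11.8 and 8.53 CPM in MHCII+CD11c+. With MHCII+CD11c- at 0 after IC, Hells was at least 1.41-fold higher in MHCII+CD11c+ there by the floor of 3 counts per library (adjusted p = 0.0484 by edgeR), a call that was lost without any 1 of the 6 libraries (adjusted p of up to 0.17). Hells passed the filter on low counts only with the MHCII+CD11c+ libraries, the group where it is high, and with no filter its adjusted p was 0.0212.

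Among mitotic genes, Mki67 encodes the proliferation marker Ki-67, which coats mitotic chromosomes, and Top2a the topoisomerase that untangles them. Untreated Mki67 lay at 9.43, 31.97 and 46.8 CPM in LYVE1+CX3CR1+, 40.7, 33.01 and 19.4 CPM in MHCII+CD11c- and 66.2, 91.4 and 74.7 CPM in MHCII+CD11c+, so LYVE1+CX3CR1+ and MHCII+CD11c- overlapped. Mki67 was lower in LYVE1+CX3CR1+ than in MHCII+CD11c+ (log2 fold change -1.37 ± 0.49 SE, adjusted p = 0.0454), a call that was lost without library 1, 2 or 3 of untreated MHCII+CD11c+ or library 1 or 2 of untreated LYVE1+CX3CR1+ (adjusted p of up to 0.219), and also by the DESeq2 Wald test (adjusted p = 0.204). After IC, Mki67 lay at 10.2, 15.8 and 30.7 CPM in LYVE1+CX3CR1+, 83.7, 0 and 78.1 CPM in MHCII+CD11c- and 49.4, 93.6 and 91.4 CPM in MHCII+CD11c+. The second MHCII+CD11c- IC library, the smallest, had no count for it. Untreated Top2a (chr11:98992947-99024199) lay at 6.07, 20.7 and 19.9 CPM in LYVE1+CX3CR1+, 88.4, 30.6 and 35.8 CPM in MHCII+CD11c- and 108, 88.8 and 87.3 CPM in MHCII+CD11c+, with no overlap between LYVE1+CX3CR1+ and either other subset. Top2a was lower in LYVE1+CX3CR1+ than in MHCII+CD11c+ (log2 fold change -2.58 ± 0.53 SE, adjusted p = 0.00061), which was kept whichever of the 6 libraries was left out. Against MHCII+CD11c- it was lower as well (log2 fold change -1.70 ± 0.55 SE, adjusted p = 0.0456), a call that was lost without library 1 of untreated MHCII+CD11c- or library 1, 2 or 3 of untreated LYVE1+CX3CR1+ (adjusted p of up to 0.34, with log2 fold changes of -1.96 to -1.07), and also by the DESeq2 Wald test (adjusted p = 0.161). After IC, Top2a lay at 4.51, 20.6 and 27.4 CPM in LYVE1+CX3CR1+, 75.8, 0 and 70.1 CPM in MHCII+CD11c- and 52.4, 69.2 and 59.7 CPM in MHCII+CD11c+.

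The cyclins and their partners drive entry into mitosis. Untreated Ccnb2, cyclin B2, lay at 2.70, 1.25 and 2.69 CPM in LYVE1+CX3CR1+, 26.7, 13.4 and 12.3 CPM in MHCII+CD11c- and 26.3, 28.9 and 22.7 CPM in MHCII+CD11c+, with 5 counts or fewer in each LYVE1+CX3CR1+ library. Ccnb2 was lower there than in MHCII+CD11c+ (log2 fold change -3.49 ± 0.72 SE, adjusted p = 0.000616), which was kept whichever of the 6 libraries was left out. Ccnb2 was also lower than in MHCII+CD11c- (log2 fold change -2.92 ± 0.75 SE, adjusted p = 0.00995), which was lost without library 1 of untreated MHCII+CD11c- or library 2 of untreated LYVE1+CX3CR1+ (adjusted p of up to 0.0657). After IC, Ccnb2 lay at 0, 0.527 and 4.32 CPM in LYVE1+CX3CR1+, 33.99, 0 and 20.03 CPM in MHCII+CD11c- and 13.9, 16.5 and 9.14 CPM in MHCII+CD11c+. Untreated Ccna2, cyclin A2, lay at 2.02, 5.64 and 9.15 CPM in LYVE1+CX3CR1+, 37.2, 9.78 and 10.2 CPM in MHCII+CD11c- and 39.9, 21.04 and 24.6 CPM in MHCII+CD11c+. Ccna2 was lower in LYVE1+CX3CR1+ than in MHCII+CD11c+ (log2 fold change -2.30 ± 0.63 SE, adjusted p = 0.0089), which was lost without library 1 of untreated LYVE1+CX3CR1+ (adjusted p of up to 0.0561). After IC, Ccna2 lay at 1.69, 4.22 and 19.7 CPM in LYVE1+CX3CR1+, 26.1, 37.7 and 17.02 CPM in MHCII+CD11c- and 15.4, 26.7 and 26.8 CPM in MHCII+CD11c+, where the third LYVE1+CX3CR1+ library reached the level of the other subsets. Ccnb1, cyclin B1, ranged over 0.674 to 2.15 CPM, 3.06 to 11.6 CPM and 4.60 to 10.1 CPM untreated and was not called.

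Cdk1 is the mitotic kinase itself and Cks2 its small adaptor. Untreated Cdk1 lay at 0.674, 1.88 and 3.77 CPM in LYVE1+CX3CR1+, 10.5, 4.89 and 8.17 CPM in MHCII+CD11c- and 21.02, 9.20 and 14.9 CPM in MHCII+CD11c+. Cdk1 was lower in LYVE1+CX3CR1+ than in MHCII+CD11c+ (log2 fold change -2.75 ± 0.78 SE, adjusted p = 0.0111), which was lost without library 1 of untreated MHCII+CD11c+ or library 1 of untreated LYVE1+CX3CR1+ (adjusted p of up to 0.0621, with log2 fold changes of -3.44 to -2.36). After IC, Cdk1 lay at 1.13, 2.11 and 7.68 CPM in LYVE1+CX3CR1+, 10.5, 0 and 8.01 CPM in MHCII+CD11c- and 1.54, 7.87 and 12.8 CPM in MHCII+CD11c+, with the groups overlapping. Untreated Cks2 (chr13:51645232-51650662) lay at 4.72, 3.76 and 3.23 CPM in LYVE1+CX3CR1+, 27.9, 11 and 18.4 CPM in MHCII+CD11c- and 14.7, 13.8 and 18.3 CPM in MHCII+CD11c+, and both MHCII+ subsets were above LYVE1+CX3CR1+ in every library. Cks2 was lower in LYVE1+CX3CR1+ than in MHCII+CD11c+ (log2 fold change -1.99 ± 0.50 SE, adjusted p = 0.00401), which was kept whichever of the 6 libraries was left out. Cks2 was also lower than in MHCII+CD11c- (log2 fold change -2.28 ± 0.51 SE, adjusted p = 0.00374), which was kept whichever of the 6 libraries was left out. After IC, Cks2 lay at 1.69, 5.27 and 2.88 CPM in LYVE1+CX3CR1+, 7.84, 7.53 and 12.02 CPM in MHCII+CD11c- and 27.8, 23.6 and 17.7 CPM in MHCII+CD11c+, again with LYVE1+CX3CR1+ below all others.

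Cdc20 activates the APC/C and Ube2c is its ubiquitin-conjugating enzyme. Untreated Cdc20 lay at 0.674, 0.627 and 2.15 CPM in LYVE1+CX3CR1+, 8.14, 0 and 11.2 CPM in MHCII+CD11c- and 13.7, 2.63 and 21.7 CPM in MHCII+CD11c+. Cdc20 was lower in LYVE1+CX3CR1+ than in MHCII+CD11c+ (log2 fold change -3.33 ± 0.90 SE, adjusted p = 0.00789), which was lost without library 3 of untreated MHCII+CD11c+ (adjusted p of up to 0.0702, with log2 fold changes of -4.10 to -2.70). After IC, Cdc20 lay at 3.38, 2.11 and 4.80 CPM in LYVE1+CX3CR1+, 10.5, 11.3 and 4.01 CPM in MHCII+CD11c- and 9.26, 4.72 and 8.53 CPM in MHCII+CD11c+, a narrower range. Untreated Ube2c lay at 1.35, 1.25 and 8.08 CPM in LYVE1+CX3CR1+, 9.30, 6.11 and 6.13 CPM in MHCII+CD11c- and 17.9, 33.5 and 8.68 CPM in MHCII+CD11c+. Ube2c was lower in LYVE1+CX3CR1+ than in MHCII+CD11c+ (log2 fold change -2.40 ± 0.87 SE, adjusted p = 0.0492), a call that was lost without library 1 or 2 of untreated MHCII+CD11c+ or library 1 or 2 of untreated LYVE1+CX3CR1+ (adjusted p of up to 0.235, with log2 fold changes of -3.83 to -1.82), and also by the DESeq2 Wald test (adjusted p = 0.0588). After IC, Ube2c lay at 0, 0.527 and 5.76 CPM in LYVE1+CX3CR1+, 33.99, 0 and 7.01 CPM in MHCII+CD11c- and 12.3, 17.3 and 4.87 CPM in MHCII+CD11c+. Each LYVE1+CX3CR1+ group held 1 library near the level of MHCII+CD11c- for Ube2c, the third.

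Of the checkpoint and mitotic kinases, Bub1b, Aurkb and Plk1 were called between untreated LYVE1+CX3CR1+ and MHCII+CD11c+, and none was between the MHCII+ subsets. Untreated Bub1b, the checkpoint kinase-like protein BubR1, lay at 0.674, 3.13 and 5.92 CPM in LYVE1+CX3CR1+, 15.1, 11 and 26.6 CPM in MHCII+CD11c- and 25.7, 25.6 and 25.6 CPM in MHCII+CD11c+. Bub1b was lower in LYVE1+CX3CR1+ than in MHCII+CD11c+ (log2 fold change -2.90 ± 0.63 SE, adjusted p = 0.00111), which was kept whichever of the 6 libraries was left out. Bub1b was also lower than in MHCII+CD11c- (log2 fold change -2.37 ± 0.66 SE, adjusted p = 0.0174), which was lost without library 3 of untreated MHCII+CD11c- or library 1 or 2 of untreated LYVE1+CX3CR1+ (adjusted p of up to 0.12, with log2 fold changes of -3.13 to -1.92). After IC, Bub1b lay at 0, 2.64 and 5.28 CPM in LYVE1+CX3CR1+, 26.1, 7.53 and 19.03 CPM in MHCII+CD11c- and 10.8, 21.2 and 14.01 CPM in MHCII+CD11c+, LYVE1+CX3CR1+ again below all others. Untreated Aurkb, Aurora B, lay at 2.70, 2.51 and 4.31 CPM in LYVE1+CX3CR1+, 18.6, 3.67 and 8.17 CPM in MHCII+CD11c- and 25.7, 20.4 and 28.9 CPM in MHCII+CD11c+. Aurkb was lower in LYVE1+CX3CR1+ than in MHCII+CD11c+ (log2 fold change -2.93 ± 0.69 SE, adjusted p = 0.00222), which was kept whichever of the 6 libraries was left out. It passed the filter on low counts only with the MHCII+CD11c+ libraries, and with no filter its adjusted p was 0.000115. After IC, Aurkb lay at 0, 2.64 and 5.76 CPM in LYVE1+CX3CR1+, 5.23, 0 and 1.001 CPM in MHCII+CD11c- and 10.8, 7.87 and 14.01 CPM in MHCII+CD11c+. Untreated Plk1, Polo-like kinase, lay at 4.04, 1.25 and 1.08 CPM in LYVE1+CX3CR1+, 15.1, 6.11 and 0 CPM in MHCII+CD11c- and 12.6, 15.8 and 15.9 CPM in MHCII+CD11c+. Plk1 was lower in LYVE1+CX3CR1+ than in MHCII+CD11c+ (log2 fold change -2.78 ± 0.96 SE, adjusted p = 0.0387), a call that was lost without library 1, 2 or 3 of untreated MHCII+CD11c+ or library 2 or 3 of untreated LYVE1+CX3CR1+ (adjusted p of up to 0.152, with log2 fold changes of -3.56 to -2.44). After IC, Plk1 lay at 0, 3.16 and 6.72 CPM in LYVE1+CX3CR1+, 28.8, 0 and 13.02 CPM in MHCII+CD11c- and 1.54, 10.2 and 6.70 CPM in MHCII+CD11c+.

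The other genes of this kind were not called. Untreated Birc5, survivin, which sits with Aurora B, lay at 6.07, 2.51 and 3.23 CPM in LYVE1+CX3CR1+, 24.4, 0 and 8.17 CPM in MHCII+CD11c- and 14.7, 18.4 and 17.8 CPM in MHCII+CD11c+. After IC, Birc5 lay at 0, 9.49 and 6.24 CPM in LYVE1+CX3CR1+, 5.23, 18.8 and 8.01 CPM in MHCII+CD11c- and 9.26, 19.7 and 11.6 CPM in MHCII+CD11c+. Bub1 ranged over 0 to 5.64 CPM, 2.44 to 8.17 CPM and 11.1 to 13.7 CPM untreated, and Aurka, Aurora A, over 0.538 to 3.13 CPM, 1.02 to 11.6 CPM and 1.45 to 18.9 CPM.

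Of the spindle genes, Prc1, which bundles the microtubules of the midzone, had the largest fitted fold change between untreated LYVE1+CX3CR1+ and MHCII+CD11c+ among the genes above the floor in both, which leaves out Cenpf and Tyms. Untreated Prc1 (chr7:80294445-80316259) lay at 1.35, 1.88 and 3.23 CPM in LYVE1+CX3CR1+, 39.5, 2.44 and 22.5 CPM in MHCII+CD11c- and 39.4, 32.9 and 31.8 CPM in MHCII+CD11c+, and 1 MHCII+CD11c- library was as low as LYVE1+CX3CR1+. Prc1 was lower in LYVE1+CX3CR1+ than in MHCII+CD11c+ (log2 fold change -3.92 ± 0.75 SE, adjusted p = 0.000276), which was kept whichever of the 6 libraries was left out. Prc1 was also lower than in MHCII+CD11c- (log2 fold change -3.24 ± 0.78 SE, adjusted p = 0.00616), which was lost without library 1 of untreated MHCII+CD11c- (adjusted p of up to 0.0706, with log2 fold changes of -3.75 to -2.49). After IC, Prc1 lay at 0, 4.22 and 11.5 CPM in LYVE1+CX3CR1+, 18.3, 11.3 and 19.03 CPM in MHCII+CD11c- and 13.9, 13.4 and 14.6 CPM in MHCII+CD11c+. Only the third LYVE1+CX3CR1+ library came near the other subsets, and there was no call against MHCII+CD11c+ (log2 fold change -1.36 ± 0.69 SE, adjusted p = 0.191). Untreated Stmn1, the tubulin-binding stathmin, lay at 17.5, 25.1 and 22.1 CPM in LYVE1+CX3CR1+, 69.8, 34.2 and 54.1 CPM in MHCII+CD11c- and 102, 96.6 and 69.4 CPM in MHCII+CD11c+. Stmn1 was lower in LYVE1+CX3CR1+ than in MHCII+CD11c+ (log2 fold change -2.04 ± 0.45 SE, adjusted p = 0.00131), which was kept whichever of the 6 libraries was left out. After IC, Stmn1 lay at 5.64, 15.8 and 50.4 CPM in LYVE1+CX3CR1+, 31.4, 11.3 and 54.1 CPM in MHCII+CD11c- and 30.9, 46.4 and 41.4 CPM in MHCII+CD11c+. The third LYVE1+CX3CR1+ IC library was well above the other two.

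Kif11, Kif20a and Kif23 are mitotic kinesins. Untreated Kif11 lay at 1.35, 6.90 and 2.15 CPM in LYVE1+CX3CR1+, 34.9, 12.2 and 16.3 CPM in MHCII+CD11c- and 33.1, 32.9 and 13.98 CPM in MHCII+CD11c+. Kif11 was lower in LYVE1+CX3CR1+ than in MHCII+CD11c+ (log2 fold change -2.91 ± 0.75 SE, adjusted p = 0.00535), which was kept whichever of the 6 libraries was left out. Kif11 was also lower than in MHCII+CD11c- (log2 fold change -2.58 ± 0.78 SE, adjusted p = 0.0291), which was lost without library 1 of untreated MHCII+CD11c- or library 1 or 3 of untreated LYVE1+CX3CR1+ (adjusted p of up to 0.17, with log2 fold changes of -3.49 to -2.02). After IC, Kif11 lay at 0, 0.527 and 7.68 CPM in LYVE1+CX3CR1+, 7.84, 0 and 8.01 CPM in MHCII+CD11c- and 7.71, 8.65 and 12.8 CPM in MHCII+CD11c+. Every LYVE1+CX3CR1+ library was then below every MHCII+CD11c+ library, the third only just, without a call (log2 fold change -1.77 ± 0.80 SE, adjusted p = 0.132). Untreated Kif20a lay at 0, 3.13 and 3.23 CPM in LYVE1+CX3CR1+, 9.30, 6.11 and 15.3 CPM in MHCII+CD11c- and 19.4, 11.8 and 22.2 CPM in MHCII+CD11c+. Kif20a was lower in LYVE1+CX3CR1+ than in MHCII+CD11c+ (log2 fold change -2.98 ± 0.78 SE, adjusted p = 0.00615), which was kept whichever of the 6 libraries was left out. After IC, Kif20a lay at 1.13, 3.69 and 7.68 CPM in LYVE1+CX3CR1+, 2.61, 0 and 17.02 CPM in MHCII+CD11c- and 7.71, 18.1 and 9.14 CPM in MHCII+CD11c+. Untreated Kif23 lay at 9.43, 19.4 and 30.2 CPM in LYVE1+CX3CR1+, 29.1, 44.01 and 18.4 CPM in MHCII+CD11c- and 20.5, 34.8 and 49.7 CPM in MHCII+CD11c+, and the subsets overlapped without a call. After IC, Kif23 lay at 6.77, 7.38 and 12.96 CPM in LYVE1+CX3CR1+, 15.7, 11.3 and 21.03 CPM in MHCII+CD11c- and 16.97, 22.8 and 27.4 CPM in MHCII+CD11c+.

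Tpx2 and Nusap1 act on spindle microtubules. Untreated Tpx2 lay at 3.37, 6.90 and 3.23 CPM in LYVE1+CX3CR1+, 24.4, 3.67 and 19.4 CPM in MHCII+CD11c- and 26.3, 21.7 and 16.4 CPM in MHCII+CD11c+. Tpx2 was lower in LYVE1+CX3CR1+ than in MHCII+CD11c+ (log2 fold change -2.23 ± 0.70 SE, adjusted p = 0.0206), which was lost without library 1 of untreated MHCII+CD11c+ or library 1 or 3 of untreated LYVE1+CX3CR1+ (adjusted p of up to 0.0951). After IC, Tpx2 lay at 0.564, 3.16 and 9.12 CPM in LYVE1+CX3CR1+, 31.4, 0 and 11.02 CPM in MHCII+CD11c- and 16.97, 14.9 and 31.1 CPM in MHCII+CD11c+. Untreated Nusap1 lay at 0, 2.51 and 3.23 CPM in LYVE1+CX3CR1+, 16.3, 8.56 and 6.13 CPM in MHCII+CD11c- and 14.7, 11.8 and 18.8 CPM in MHCII+CD11c+. Nusap1 was lower in LYVE1+CX3CR1+ than in MHCII+CD11c+ (log2 fold change -2.88 ± 0.85 SE, adjusted p = 0.0144), which was lost without library 3 of untreated MHCII+CD11c+ or library 1 of untreated LYVE1+CX3CR1+ (adjusted p of up to 0.07). After IC, Nusap1 lay at 0, 1.05 and 6.24 CPM in LYVE1+CX3CR1+, 10.5, 0 and 10.01 CPM in MHCII+CD11c- and 12.3, 6.29 and 8.53 CPM in MHCII+CD11c+. In both genes the second MHCII+CD11c- IC library was at 0.

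At the centromere, Cenpa is the histone H3 variant that marks it, and Cenpe and Cenpf bind the outer kinetochore. Untreated Cenpa lay at 5.39, 8.78 and 9.15 CPM in LYVE1+CX3CR1+, 44.2, 37.9 and 10.2 CPM in MHCII+CD11c- and 25.2, 21.04 and 21.2 CPM in MHCII+CD11c+, with 2 of 3 MHCII+CD11c- libraries above all of MHCII+CD11c+. Cenpa was lower in LYVE1+CX3CR1+ than in MHCII+CD11c- (log2 fold change -1.95 ± 0.47 SE, adjusted p = 0.00662), which was lost without library 1 of untreated MHCII+CD11c- (adjusted p of up to 0.0608). Cenpa was also lower than in MHCII+CD11c+ (log2 fold change -1.51 ± 0.46 SE, adjusted p = 0.0179), which was lost without library 1 of untreated MHCII+CD11c+ or library 1 of untreated LYVE1+CX3CR1+ (adjusted p of up to 0.0869). After IC, Cenpa lay at 10.7, 9.49 and 7.68 CPM in LYVE1+CX3CR1+, 31.4, 22.6 and 25.04 CPM in MHCII+CD11c- and 23.1, 7.87 and 11.6 CPM in MHCII+CD11c+. Untreated Cenpf lay at 1.35, 0.627 and 1.08 CPM in LYVE1+CX3CR1+, 5.81, 8.56 and 6.13 CPM in MHCII+CD11c- and 14.7, 14.5 and 15.9 CPM in MHCII+CD11c+, with LYVE1+CX3CR1+ at the floor, at least 8.17-fold lower than MHCII+CD11c+ by the floor of 3 counts per library (adjusted p = 0.00127 by edgeR). That call was kept whichever of the 6 libraries was left out. After IC, Cenpf lay at 0.564, 1.05 and 10.6 CPM in LYVE1+CX3CR1+, 31.4, 18.8 and 16.02 CPM in MHCII+CD11c- and 24.7, 5.51 and 20.7 CPM in MHCII+CD11c+. Cenpe ranged over 0 to 4.85 CPM, 0 to 12.8 CPM and 6.27 to 17.8 CPM untreated and was not called.

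**Figure D4:**
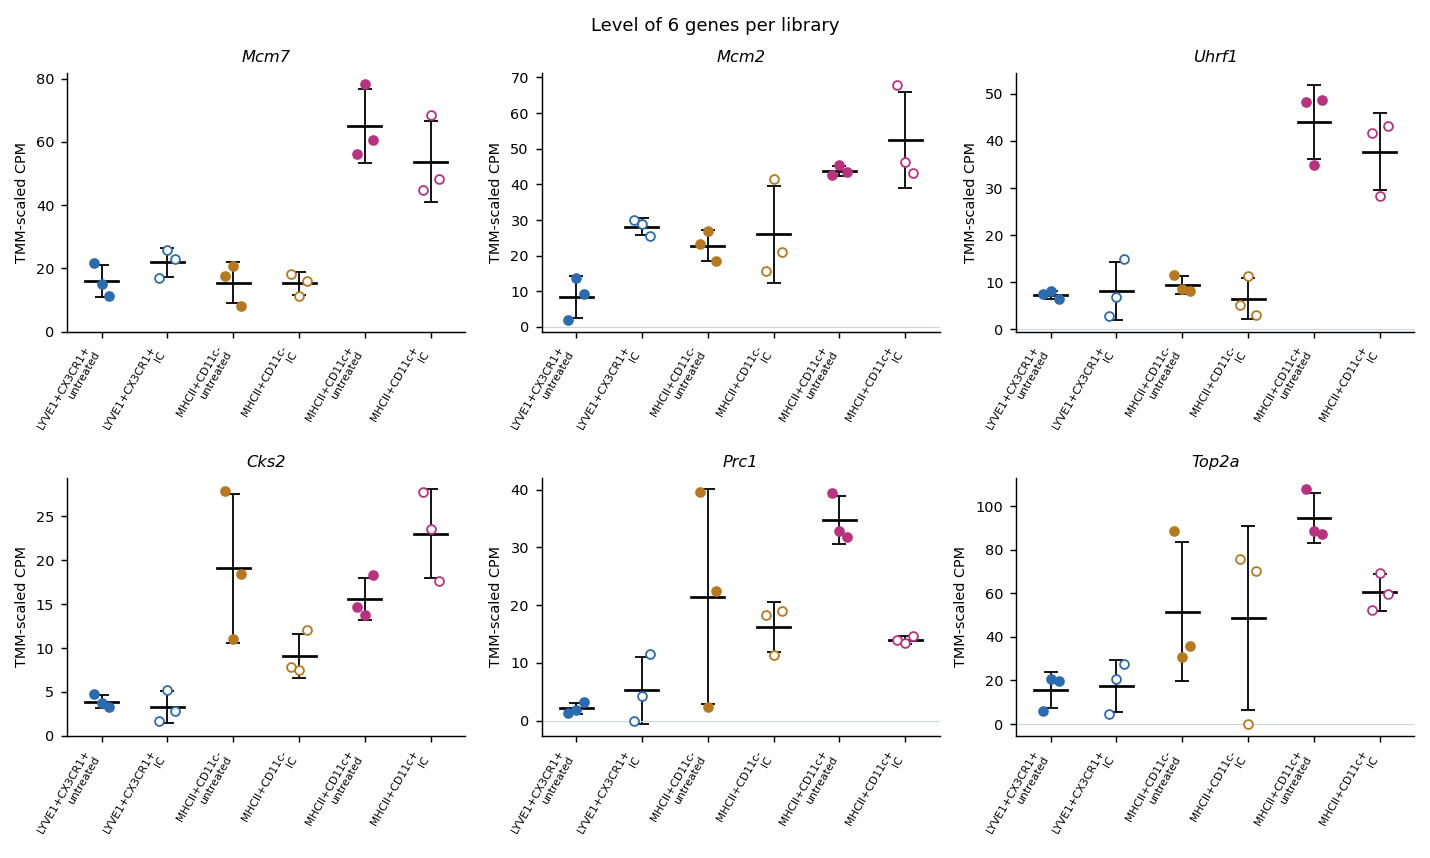
TMM-scaled CPM of Mcm7, Mcm2, Uhrf1, Cks2, Prc1 and Top2a in each library (filled points, untreated; open points, 8 h after IC), with the mean and SD of the 3 libraries of a group. Mcm7 and Uhrf1 are high in MHCII+CD11c+ alone, and Mcm2 is the gene called higher after IC in LYVE1+CX3CR1+.

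The next question was whether IC changed these genes within 8 h. In LYVE1+CX3CR1+ macrophages 1 gene was called, Mcm2, where 0.246% of all genes tested were called higher. It went from 2.02, 13.8 and 9.15 CPM to 29.9, 28.99 and 25.4 CPM, so the groups did not overlap (log2 fold change 1.73 ± 0.39 SE, adjusted p = 0.0452). The call was lost without library 1 or 3 of untreated LYVE1+CX3CR1+ or library 1, 2 or 3 of LYVE1+CX3CR1+ after IC (adjusted p of up to 0.23), and the first untreated library, with 3 counts, was the lowest. Of the other 44 genes none was called, and the medians were -0.001 for the licensing, 0.05 for the synthesis and 0.17 for the mitotic genes. The mitotic sums were 148 ± 59.0 CPM before and 147 ± 112 CPM after (SD, n = 3 libraries), with the first IC library at 52.4 CPM and the third at 270.3 CPM.

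In MHCII+CD11c- macrophages none of the 45 genes was called, by edgeR or DESeq2, where 1.06% of all genes tested were called in either direction. At an unadjusted p under 0.05 there were 5 (2 higher and 3 lower), where a share of 0.05 is expected without any difference. Without both small IC libraries none was called either, with the 1 library left assumed to vary like the other groups. The mitotic sums were 431 ± 180 CPM before and 419 ± 214 CPM after, and the IC libraries (181 to 594 CPM) overlapped the untreated ones (302 to 636 CPM).

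In MHCII+CD11c+ macrophages none of the 45 was called by edgeR or DESeq2, where 0.673% of all genes tested were called in either direction, and Stmn1 and Prc1 alone were at an unadjusted p under 0.05. Yet 20 of the 25 mitotic genes had fitted values below 0, with a median of -0.76, against medians of 0.06 for the licensing and -0.18 for the synthesis genes and -0.01 for all genes tested. The mitotic sum was 692 ± 41.9 CPM before (649.6 to 733 CPM) and 459 ± 45.6 CPM after (407 to 492 CPM), without overlap, and the licensing sum was 412 ± 33.3 CPM before and 416 ± 67.0 CPM after. Mitotic genes accordingly took 34.0% to 40.6% of the counts of the 45 genes after IC. In 11 genes every IC library lay below every untreated one (Aurkb, Top2a, Kif11, Bub1b, Bub1, Stmn1, Prc1, Plk1, Ccnb2, Tk1 and Lig1), a share to be read against the 9.94% of all genes tested that did so, and in none did every IC library lie above. Of these 11, Aurkb and Bub1 passed the filter on low counts only with the MHCII+CD11c+ libraries. Bub1 reached the level of the filter in 3 untreated libraries of that subset and 1 after IC, so its lower values after IC are in part set by the filter.

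Prc1 lay at 39.4, 32.9 and 31.8 CPM before and 13.9, 13.4 and 14.6 CPM after (log2 fold change -1.31 ± 0.62 SE, adjusted p = 0.509). Stmn1 lay at 102, 96.6 and 69.4 CPM before and 30.9, 46.4 and 41.4 CPM after (log2 fold change -1.15 ± 0.44 SE, adjusted p = 0.338). Both were called lower when only the 6 libraries compared were fitted, and Stmn1 was when no filter on low counts was used. Mki67, in contrast, lay at 66.2, 91.4 and 74.7 CPM before and 49.4, 93.6 and 91.4 CPM after (log2 fold change 0.04 ± 0.47 SE, adjusted p = 0.993). The IC libraries of this group were shallower (671244 to 1614423 counts against 1589668 to 2172358). In them the 3 neutrophil markers found of 4 (S100a8, S100a9 and Retnlg) summed to 574 to 1366 CPM, against 3.29 to 285 CPM untreated. The 4 markers of LYVE1+CX3CR1+ macrophages summed to 1205 to 1550 CPM, against 463 to 580 CPM untreated. The part of depth and of these markers in the difference was not tested.

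**Figure D5:**
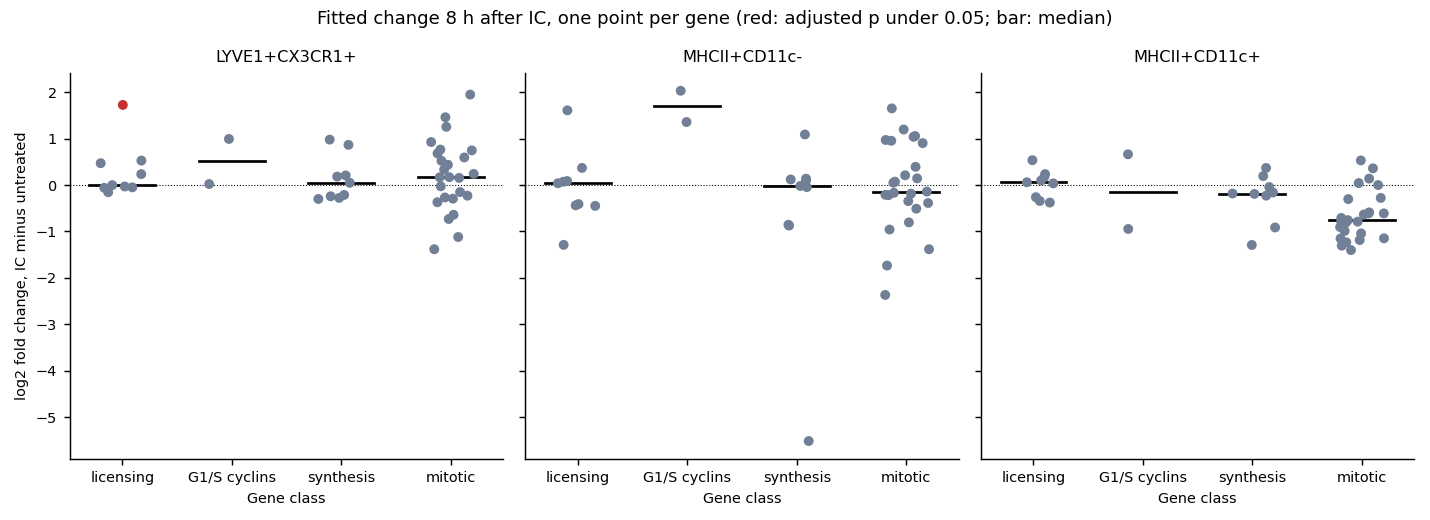
Fitted log2 fold change 8 h after IC of each of the 45 genes (points) by class in each subset, with the class median (bar) and genes at an adjusted p under 0.05 in red. The only red point is Mcm2 in LYVE1+CX3CR1+, and the mitotic median is -0.76 in MHCII+CD11c+ and 0.17 in LYVE1+CX3CR1+.

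Whether the response differed between subsets was tested by the interaction of subset and treatment. No gene of the 45 was called in any of the 3 interactions by edgeR, where 0.00948% of all genes tested (1 gene) were called for MHCII+CD11c+ minus MHCII+CD11c-, 0% for LYVE1+CX3CR1+ minus MHCII+CD11c- and 0.00948% for LYVE1+CX3CR1+ minus MHCII+CD11c+, nor was any by DESeq2. Without both small MHCII+CD11c- IC libraries none was called in the pair of interactions that involve that subset. At an unadjusted p under 0.05, where a share of 0.05 is expected without any difference, there were 3, 4 and 2 genes of the 45. The mitotic median of the last interaction was 0.996 on the log2 scale, with values from -0.76 to 2.56.

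The same subsets were compared after IC. LYVE1+CX3CR1+ against MHCII+CD11c+ gave 13 genes called lower and none higher, where 11.5% of all genes tested were called lower. They were 2 licensing genes (Mcm5 and Mcm7), 3 synthesis genes (Uhrf1, Rrm2 and Fen1) and 8 mitotic genes (Cks2, Mki67, Bub1b, Ccnb2, Top2a, Tpx2, Kif23 and Cenpf). The class medians were -1.10, -1.54 and -1.77, against -0.04 for all genes tested. Without the third LYVE1+CX3CR1+ IC library, in which 21 of 25 mitotic genes were highest, 21 genes were called, and without the first 8 were.

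Cks2 had the smallest adjusted p of that comparison (log2 fold change -2.75 ± 0.50 SE, adjusted p = 0.000217), and its call was kept whichever of the 6 libraries was left out. The calls of Uhrf1 (log2 fold change -2.16 ± 0.43 SE, adjusted p = 0.000539), Rrm2 (log2 fold change -2.51 ± 0.50 SE, adjusted p = 0.000576), Mcm5 (log2 fold change -1.86 ± 0.38 SE, adjusted p = 0.000663), Mcm7 (log2 fold change -1.30 ± 0.31 SE, adjusted p = 0.00305) and Mki67 (log2 fold change -2.05 ± 0.51 SE, adjusted p = 0.00442) likewise held whichever of the 6 libraries was left out. Fen1 (log2 fold change -1.64 ± 0.42 SE, adjusted p = 0.00608) was lost without library 2 of MHCII+CD11c+ after IC or library 1 of LYVE1+CX3CR1+ after IC (adjusted p of up to 0.065, with log2 fold changes of -2.31 to -1.31). Bub1b (log2 fold change -2.48 ± 0.66 SE, adjusted p = 0.00731) was lost without library 2 of MHCII+CD11c+ after IC (adjusted p of up to 0.0526, with log2 fold changes of -3.44 to -1.91). Ccnb2 (log2 fold change -2.87 ± 0.76 SE, adjusted p = 0.00737) was lost without library 2 of LYVE1+CX3CR1+ after IC (adjusted p of up to 0.051, with log2 fold changes of -5.15 to -2.31). Top2a (log2 fold change -1.78 ± 0.53 SE, adjusted p = 0.0167) was lost without library 2 of MHCII+CD11c+ after IC or library 1 of LYVE1+CX3CR1+ after IC (adjusted p of up to 0.107), and also by the DESeq2 Wald test (adjusted p = 0.1). Tpx2 (log2 fold change -2.26 ± 0.70 SE, adjusted p = 0.0215) was lost without library 3 of MHCII+CD11c+ after IC or library 1 or 2 of LYVE1+CX3CR1+ after IC (adjusted p of up to 0.15, with log2 fold changes of -3.43 to -1.74). Kif23 (log2 fold change -1.32 ± 0.45 SE, adjusted p = 0.0386) was lost without library 2 or 3 of MHCII+CD11c+ after IC or library 1 or 2 of LYVE1+CX3CR1+ after IC (adjusted p of up to 0.171). Cenpf (log2 fold change -1.96 ± 0.69 SE, adjusted p = 0.0462) was lost without library 1 or 3 of MHCII+CD11c+ after IC or library 1 or 2 of LYVE1+CX3CR1+ after IC (adjusted p of up to 0.205, with log2 fold changes of -4.19 to -1.44), and also when only the 6 libraries compared were fitted (adjusted p = 0.0673).

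LYVE1+CX3CR1+ against MHCII+CD11c- after IC gave 4 genes called lower and none higher, where 6.45% of all genes tested were called lower. The mitotic sums were 147 ± 112 CPM (SD) in LYVE1+CX3CR1+ and 419 ± 214 CPM in MHCII+CD11c-, both small libraries included. The licensing means went the other way, at 235 ± 29.9 and 200 ± 62.5 CPM. Synthesis genes were at 186 ± 44.9 and 239 ± 95.1 CPM, and the libraries overlapped in each class. Ccnb2 (log2 fold change -3.43 ± 0.79 SE, adjusted p = 0.00499) was kept whichever of the 6 libraries was left out. Bub1b (log2 fold change -2.71 ± 0.70 SE, adjusted p = 0.0136) was lost without library 1 or 3 of MHCII+CD11c- after IC or library 1 or 2 of LYVE1+CX3CR1+ after IC (adjusted p of up to 0.0572, with log2 fold changes of -3.66 to -2.15). Rrm2 (log2 fold change -1.85 ± 0.57 SE, adjusted p = 0.0387) was lost without library 1 or 2 of MHCII+CD11c- after IC or library 1 or 2 of LYVE1+CX3CR1+ after IC (adjusted p of up to 0.152), and also with no filter on low counts (adjusted p = 0.0502). Cenpf (log2 fold change -2.34 ± 0.73 SE, adjusted p = 0.041) was lost without library 1, 2 or 3 of MHCII+CD11c- after IC or library 1 or 2 of LYVE1+CX3CR1+ after IC (adjusted p of up to 0.165, with log2 fold changes of -4.56 to -1.83). The number was 11 without the third LYVE1+CX3CR1+ IC library, 1 without the first or the second of them or without the first MHCII+CD11c- IC library, and 2 without the third MHCII+CD11c- IC library. When only the 6 libraries compared were fitted, Bub1b, Rrm2 and Cenpf lost their calls and Ccnb2 had no value, since it fell under the filter of that fit. Without both small MHCII+CD11c- IC libraries 3 genes were called, Ccnb2 (adjusted p = 0.0119), Mki67 and Top2a, and the calls of Bub1b (adjusted p = 0.0559), Cenpf (0.294) and Rrm2 (0.333) were lost.

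MHCII+CD11c+ against MHCII+CD11c- after IC gave 4 genes called higher and none lower, where 1.77% of all genes tested were called higher, namely the licensing genes Mcm7 and Mcm4 and the synthesis genes Uhrf1 and Hells. By mean sums MHCII+CD11c+ was then 2.08 (licensing), 1.34 (synthesis) and 1.10 times (mitotic) as high as MHCII+CD11c-. Of these, the licensing sums alone did not overlap, with both small libraries included. Mcm7 (log2 fold change 1.78 ± 0.38 SE, adjusted p = 0.00811) was lost without library 2 of MHCII+CD11c+ after IC (adjusted p of up to 0.0593). Mcm4 (log2 fold change 1.94 ± 0.50 SE, adjusted p = 0.0332) was lost without library 1 or 3 of MHCII+CD11c+ after IC or library 2 or 3 of MHCII+CD11c- after IC (adjusted p of up to 0.146). Uhrf1 was at least 5.11-fold higher in MHCII+CD11c+ than the floor of 3 counts per library in MHCII+CD11c- (adjusted p = 0.00517 by edgeR), and was lost without library 3 of MHCII+CD11c- after IC (adjusted p of up to 0.0782). The fourth was Hells, given above. Without the second MHCII+CD11c- IC library, or without the first or the third MHCII+CD11c+ IC library, 2 of them (Mcm7 and Uhrf1) were called, and 2 (Mcm4 and Uhrf1) without the second MHCII+CD11c+ IC library. Mcm7 alone was called without the third MHCII+CD11c- IC library, and Uhrf1 alone without both small MHCII+CD11c- IC libraries. Uhrf1 was also the only one called when the 6 libraries compared were fitted alone, a fit in which Hells had no value.

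Other genes of the pathway were read from a list of 133, of which 115 were tested. Untreated LYVE1+CX3CR1+ against MHCII+CD11c+ had 35 called lower (30.4%, against 12.4% of all genes tested) and 1 higher. The 35 were 20 of 44 mitotic genes tested, 7 of 22 G1 regulators, 5 of 29 synthesis genes, 1 of 12 licensing genes and 2 of 8 CDK inhibitors and antiproliferative genes. Largest in size were Ccnd2, cyclin D2 (log2 fold change -3.70 ± 0.57 SE, adjusted p = 2.22e-05), Racgap1 of the midzone (log2 fold change -3.43 ± 0.56 SE, adjusted p = 4.32e-05) and Ckap2l of the spindle (log2 fold change -3.38 ± 0.81 SE, adjusted p = 0.00265), with Spc24 of the kinetochore (adjusted p = 0.00319) and the dUTPase gene Dut (adjusted p = 0.00651), which had 2 counts or fewer in each LYVE1+CX3CR1+ library and are given without a fold. Cdk6, a kinase of G1, was the 1 called higher (log2 fold change 1.79 ± 0.36 SE, adjusted p = 0.00045). Against MHCII+CD11c-, 10 were called lower (8.7%, near the 7.12% of all genes tested) and 1 higher, led by Ccnd2 (log2 fold change -2.38 ± 0.63 SE, adjusted p = 0.0126), Rpa2 (log2 fold change -2.27 ± 0.68 SE, adjusted p = 0.0288), Kifc1 (log2 fold change -2.17 ± 0.67 SE, adjusted p = 0.0346), Lmnb1 (log2 fold change -2.07 ± 0.39 SE, adjusted p = 0.000596) and E2f2 (log2 fold change -1.95 ± 0.54 SE, adjusted p = 0.0156).

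MHCII+CD11c+ against MHCII+CD11c- had 1 called of 115 (0.87%, against 1.89% of all genes tested), Smc4 of condensin, higher (log2 fold change 1.14 ± 0.32 SE, adjusted p = 0.0455). With IC, the antiproliferative gene Btg2 alone was called, lower in MHCII+CD11c- (log2 fold change -0.70 ± 0.16 SE, adjusted p = 0.0237) and in MHCII+CD11c+ (log2 fold change -0.83 ± 0.16 SE, adjusted p = 0.0099), and none of the 115 was called in LYVE1+CX3CR1+ by edgeR. A share of 0.87% of the 115 stands near the 1.06% (MHCII+CD11c-) and 0.673% (MHCII+CD11c+) of all genes tested called in either direction. In LYVE1+CX3CR1+ 0.464% of all genes tested were called. After IC, LYVE1+CX3CR1+ had 17 called lower (14.8%, against 11.5% of all genes tested) and 1 higher against MHCII+CD11c+, led by Ccnd2 (log2 fold change -4.36 ± 0.59 SE, adjusted p = 3.75e-06) and Dlgap5 (log2 fold change -3.54 ± 1.04 SE, adjusted p = 0.0155), with Ncapg (adjusted p = 0.00328), Cks1b (adjusted p = 0.0111) and Spc24 (adjusted p = 0.0423) at 3 counts or fewer in each LYVE1+CX3CR1+ library. Against MHCII+CD11c- it had 10 called lower (8.7%, against 6.45% of all genes tested), led by Ccnd2 (log2 fold change -4.26 ± 0.62 SE, adjusted p = 3.21e-05), Cdca8 (log2 fold change -2.39 ± 0.76 SE, adjusted p = 0.046), Lmnb1 (log2 fold change -2.31 ± 0.38 SE, adjusted p = 0.000144), Ccnd1 (log2 fold change -1.83 ± 0.39 SE, adjusted p = 0.00272) and Ncapd2 (log2 fold change -1.65 ± 0.44 SE, adjusted p = 0.0167). Without both small MHCII+CD11c- IC libraries 7 were called lower in that comparison, 6 of them among the 10, and the call of Btg2 in MHCII+CD11c- was lost.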

How the data were processed

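RNA of sorted synovial macrophages was made into stranded total RNA libraries with a low-input kit. The authors deposited 1 table of raw gene counts per library. Per the labels, reads were trimmed with Trim Galore, checked with FastQC, aligned with HISAT2 to mm10 and counted with featureCounts. Versions, the annotation release and the strand setting are not given in the sources used here. Of the 45 genes, 14 share exon bases with another annotated gene, so reads of such pairs cannot be told apart if strand was not used.

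All 18 libraries in 6 groups were fitted together in edgeR 4.0.16 (R 4.3.3, limma 3.58.1) with TMM scaling, after filterByExpr with a minimum count of 10 and a minimum total of 15, which left 10550 genes. A quasi-likelihood F test was run for each of 12 comparisons, with p-values adjusted within a comparison after Benjamini and Hochberg and called under 0.05. Levels are TMM-scaled CPM, and lengths are unions of GENCODE vM21 exons. The scripts were tested on simulated counts. Totals of 245903 to 2172358 counts set the precision, and a group with 3 counts or fewer in each library was taken as at the floor, against which a fold is a bound. Alternatives were DESeq2 1.42.0 (size factors, Wald test), no filter, only the libraries compared, a replicate block, 1 surrogate variable (sva 3.50.0), leaving out each library, and leaving out both small libraries. The 45 genes, the marker lists and the list of other cell cycle genes were chosen with earlier results of these data known. The genes described one by one are those called in any comparison and those with the highest mean level, and the others are given by their range. One gene of the B cell marker list is not reported here and was left out of that list's sums.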

Additional observations from a re-analysis of the deposited data

How the results depend on the processing

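The 62 calls made for the 45 genes were repeated under each alternative, other than the surrogate variable, that could be fitted to the comparison. The call was kept 608 times and lost 139 times, and no direction reversed. With only the libraries compared, 4 calls (Cdc20, Prc1, Ccnb2 after IC and Hells) had no value, since the gene fell under the filter of that fit. With no filter on low counts the number of the 45 genes called was 13 in place of 8 for LYVE1+CX3CR1+ against MHCII+CD11c- untreated, 7 in place of 4 for the same subsets after IC, and 1 in place of 0 for IC in MHCII+CD11c+. With only the libraries compared it was 2 in place of 0 for IC in MHCII+CD11c+, 1 in place of 4 for MHCII+CD11c+ against MHCII+CD11c- after IC, and 0 in place of 4 for LYVE1+CX3CR1+ against MHCII+CD11c- after IC, where Ccnb2 was not tested. Without both small MHCII+CD11c- IC libraries, chosen after seeing the data, MHCII+CD11c+ against MHCII+CD11c- after IC gave 1 in place of 4, and LYVE1+CX3CR1+ against MHCII+CD11c- after IC gave 3 in place of 4, with 1 gene shared. The cause of these shifts was not tested, beyond the smaller number of libraries in the fit.

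Leaving out each library in turn gave 2 to 4 calls for MHCII+CD11c+ against MHCII+CD11c- untreated, 2 to 9 for LYVE1+CX3CR1+ against MHCII+CD11c-, 18 to 25 for LYVE1+CX3CR1+ against MHCII+CD11c+, and 0 to 1 for IC in LYVE1+CX3CR1+. After IC the ranges were 1 to 3, 1 to 11 and 8 to 21 in the same order of subsets. Shares of all genes tested called in the alternative fits are not given here. Shifts in such counts are therefore not read as particular to the cell cycle genes. For the 115 other cell cycle genes the number of different genes called in any comparison was 41, and 26 to 51 without 1 library, with 26 when the first untreated LYVE1+CX3CR1+ library was left out. DESeq2 size factors, the DESeq2 Wald test and the surrogate variable left every count of calls within 1.5 times, though by the DESeq2 Wald test the calls of Mki67, Fen1 and Ube2c between untreated LYVE1+CX3CR1+ and MHCII+CD11c+ were lost, as were those of Top2a against MHCII+CD11c- untreated and against MHCII+CD11c+ after IC.

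Libraries of different groups share replicate numbers, but no source says that a number marks shared mice. The correlation of deviations ran from -0.046 to 0.132 between subsets of one treatment (1 of 18 pairs above 0.1) and from -0.027 to 0.039 between treatments of one subset (0 of 9), although 17 of 18 libraries correlated best with their own number. With the replicate number as a block the untreated comparisons gave 4, 7 and 27 calls, IC gave 1 in LYVE1+CX3CR1+ and 0 in the others, and the comparisons after IC gave 3, 5 and 13. The calls lost with it were those of Top2a for LYVE1+CX3CR1+ against MHCII+CD11c- untreated, of Fen1 and Ube2c for LYVE1+CX3CR1+ against MHCII+CD11c+ untreated, and of Hells. Depth limits what can be said of genes at a few counts, and 50 of 135 values were at 3 counts or fewer in MHCII+CD11c- after IC.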
